A study of Homo sapiens with 9 samples.

Results

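CDO1 and 8 further genes that act on cysteine, its thiol group, sulfide and taurine were followed in VCaP cells after transfection with siRNA. The 9 genes were CDO1, ADO, CSAD, SLC6A6, MPST, TST, SQOR, ETHE1 and SUOX, each found by its symbol among the 58735 genes of the count table, and all 9 were among the 15555 genes that passed the filter on low counts. VCaP is an established human prostate cancer cell line, grown in medium with serum and 2 nM DHT, the androgen dihydrotestosterone, in all 9 libraries. Cells received a control siRNA (siCtrl, genotype labelled WT) or 1 of the siRNAs siCDO1A and siCDO1C (genotype labelled CDO1 knockdown), with 3 libraries per condition. The labels call the libraries biological replicates, number them 1 to 3 and give a batch number equal to the replicate number, and they give neither the sequence of an siRNA nor the time of harvest. The knockdown was therefore examined in 1 cell line, under androgen, and with a single control siRNA shared by both comparisons.

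CDO1 encodes cysteine dioxygenase, which adds oxygen to the thiol of cysteine and gives cysteine sulfinate. CSAD removes the carboxyl group of cysteine sulfinate to give hypotaurine, from which taurine is made, and SLC6A6 carries taurine into the cell. ADO is the other thiol dioxygenase of human cells and acts on cysteamine and on proteins that begin with cysteine. MPST and TST are sulfurtransferases, and in mitochondria SQOR, ETHE1 and SUOX take sulfide in turn to persulfide, sulfite and sulfate. In many tumours CDO1 is known as a gene silenced by methylation of its promoter.

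Only the promoter windows of the 2 dioxygenases are shown, because CG sites at the start of CDO1 are the ones known for methylation and ADO is its closest relative in function. They run from 250 bases before the annotated start to 50 bases after it, in the RefSeq annotation of GRCh38.p14, with capitals marking each C followed by G. The CDO1 window (chr5:115816610-115816909, minus strand) holds 30 CG sites, more than 77.6% of 35116 such windows, and the ADO window (chr10:62804470-62804769, plus strand) holds 19, more than 57.1% of them, against a median of 14. The deposited gene coordinates place the CDO1 start at 115816954 and the ADO start at 62804857. By those coordinates the CDO1 window lies inside the gene and the ADO window before it, so the CG counts hold for the RefSeq starts only. Among the other members with a window, CSAD held 29 CG sites, ETHE1 28, SQOR 26 and SUOX 11, so a count near that of CDO1 was not particular to it. The RNA libraries carry no measurement of methylation.
CDO1: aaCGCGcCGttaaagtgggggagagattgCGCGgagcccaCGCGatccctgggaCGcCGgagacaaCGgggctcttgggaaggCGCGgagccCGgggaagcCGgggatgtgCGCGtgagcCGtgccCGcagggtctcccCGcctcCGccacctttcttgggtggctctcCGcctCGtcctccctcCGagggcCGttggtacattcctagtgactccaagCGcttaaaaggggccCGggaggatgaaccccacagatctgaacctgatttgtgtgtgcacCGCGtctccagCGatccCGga
ADO: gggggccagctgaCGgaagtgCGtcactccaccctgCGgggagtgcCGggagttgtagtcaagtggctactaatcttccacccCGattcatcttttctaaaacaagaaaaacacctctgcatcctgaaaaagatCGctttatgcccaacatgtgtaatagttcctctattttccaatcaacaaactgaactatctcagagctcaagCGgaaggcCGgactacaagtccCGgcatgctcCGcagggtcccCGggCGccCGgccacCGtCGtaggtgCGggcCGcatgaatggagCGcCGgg

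The total count ranged from 12061295 to 16073698 per library, and 3 counts, the limit that a count of 0 allows, corresponded to between 0.186 and 0.248 CPM (a count relative to the TMM-normalized library size), a limit that covers counting error only. Prostate luminal and VCaP markers (9 genes, all tested, among them KLK2 and KLK3) summed to between 5540 and 5770 CPM in siCtrl libraries, 6320 to 6750 with siCDO1A and 5930 to 6220 with siCDO1C. Neuroendocrine markers (3 genes) summed to at most 156 CPM, basal markers (3) to at most 3.42, fibroblast markers (4, of which COL1A2 was at 0 in every library) to at most 5.41, and the leukocyte and endothelial markers to at most 0.373. KLK2 alone made up most of the luminal sum (2990 CPM on average with siCtrl, 3790 with siCDO1A and 3200 with siCDO1C), and single luminal markers moved in either direction: 3 of 9 were called higher and 3 lower with siCDO1A, and 1 higher and 2 lower with siCDO1C, KLK3 among the lower with each. With siCDO1A 2 of 3 neuroendocrine markers and the tested basal and fibroblast marker were called higher as well. Of all genes tested, 14.8% were called with siCDO1A and 4.77% with siCDO1C. The part of these markers in the results was not tested. The library siCDO1C replicate 2 stood apart from the other siCDO1C libraries, and leaving it out raised the genes that passed the test from 742 to 2068.

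CDO1 RNA fell with each siRNA, and in bulk RNA, here as in all that follows, fewer cells that express a gene and less of its RNA per cell cannot be told apart. The gene (ENSG00000129596) lies on the minus strand of chromosome 5 from 115804733 to 115816954 in GRCh38, with 2189 bases of exon by the deposited gene length. Its level was 14.2, 14.1 and 13.7 CPM in siCtrl replicates 1, 2 and 3 (182, 177 and 220 counts). With siCDO1A it was 3.28, 2.05 and 2.18 CPM (40, 30 and 33 counts), and with siCDO1C it was 1.10, 2.81 and 1.16 CPM (16, 37 and 14 counts). Every siRNA library therefore lay far below the siCtrl libraries, every library kept CDO1 counts above the limit of 3, and siCDO1C replicate 2 kept the most RNA of its condition. The mean level that remained was 17.9% of siCtrl with siCDO1A and 12.1% with siCDO1C (p = 0.1 for either siRNA in a two-sided exact permutation test, the smallest that 3 against 3 libraries can give). On the log2 scale the change was -2.50 for siCDO1A (SE, standard error, 0.167, edgeR adjusted p = 3.01e-09) and -3.05 for siCDO1C (SE 0.239, edgeR adjusted p = 3.9e-06). By this measure CDO1 showed the largest fall among the 15555 genes tested in each comparison.

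The coefficient of variation of CDO1 was 1.98% in siCtrl cells, 27% with siCDO1A and 57.8% with siCDO1C. Counting error at the 177 to 220 counts of siCtrl libraries is itself larger than 1.98%, so the siCtrl value is not a reliable measure of spread. The counts of 14 to 40 after knockdown are more imprecise still, and the value for siCDO1C rests largely on replicate 2 (2.81 CPM beside 1.10 and 1.16). Against the siCtrl library of the same number, the log2 ratio of CDO1 was -2.11, -2.78 and -2.65 with siCDO1A. It was -3.69, -2.32 and -3.56 with siCDO1C. The siRNAs were not told apart in CDO1 itself: the log2 difference of siCDO1C from siCDO1A was -0.56 (95% interval -1.30 to 0.18, edgeR adjusted p = 0.826), and 1 of the 3 siCDO1C libraries lay among the siCDO1A libraries. Without siCDO1C replicate 2 the log2 fold change against siCtrl was -3.63.

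**Figure D1:**
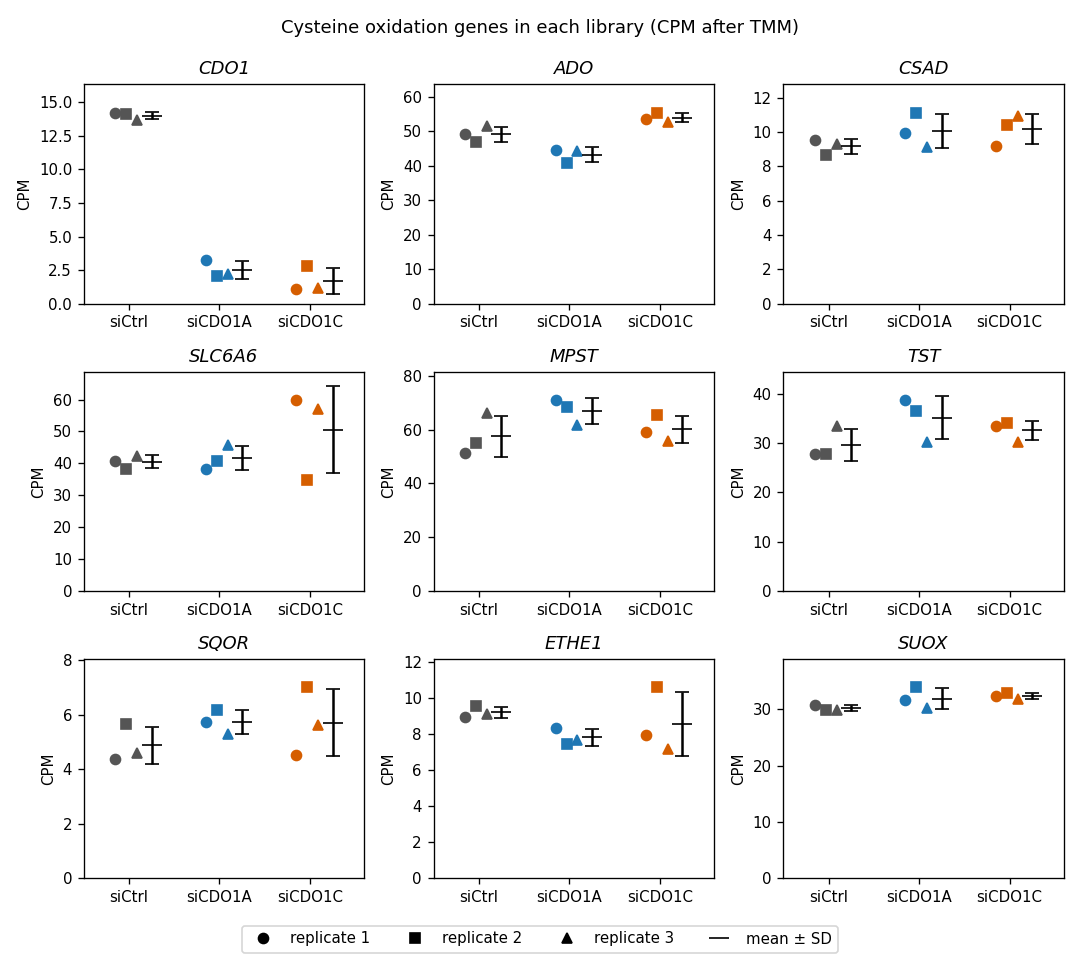
Each panel plots 1 gene, with the level in CPM after TMM on an axis that starts at 0, 1 point per library (shape marks the replicate number, colour the condition) and a bar for the mean ± SD of 3 libraries. CDO1 drops from between 13.7 and 14.2 CPM to at most 3.28 CPM, while the other 8 genes shift far less, with ADO below its siCtrl points for siCDO1A and above them for siCDO1C, and SLC6A6 at 59.8 and 57.0 CPM in siCDO1C replicates 1 and 3 but 34.8 CPM in replicate 2.

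Of the other 8 genes, 0 passed the test of edgeR with siCDO1A, with siCDO1C, or between the siRNAs. Of all genes tested, 14.8% passed with siCDO1A, 4.77% with siCDO1C, 3.62% with both in the same direction, and 0.444% between the siRNAs. At an unadjusted p under 0.05, 3 of the 8 genes differed with siCDO1A (MPST and TST higher, ADO lower), 0 with siCDO1C, and 1 between the siRNAs (ADO), where 27.9%, 18.6% and 7.65% of all genes tested lay under this limit. The median log2 fold change of the 8 genes was 0.10 with siCDO1A and 0.13 with siCDO1C, beside 0.01 and 0.00 over all genes tested. Their median size, sign aside, was 0.20 and 0.13, beside 0.15 and 0.14 over all genes. DESeq2, fitted to the 6 libraries compared or to all 9, also called 0 of the 8 against siCtrl. With the replicate number entered as a block, 1358 genes in place of 2309 passed for siCDO1A and 121 in place of 69 between the siRNAs, and the count of the 8 stayed at 0.

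**Figure D2:**
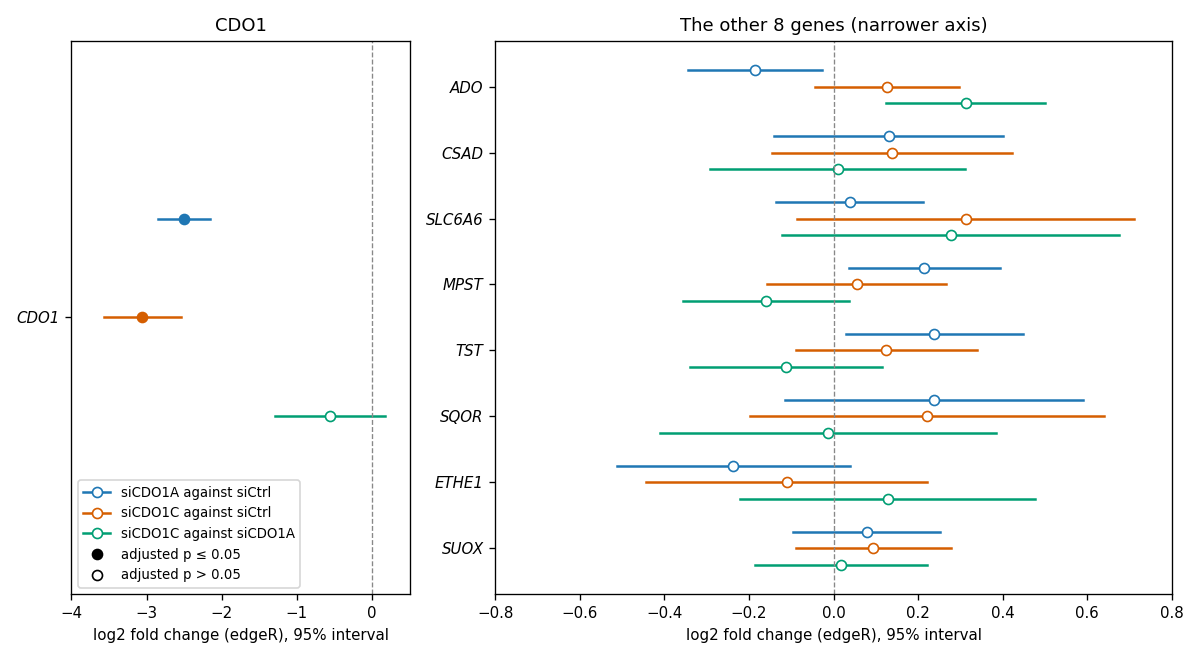
Points are edgeR log2 fold changes and bars 95% intervals for the 3 comparisons, CDO1 at left on an axis from -4 and the other 8 genes at right on a narrower axis. Filled points pass an adjusted p of 0.05, which holds only for CDO1 against siCtrl, and the interval of ADO between the siRNAs runs from 0.12 to 0.50 although its adjusted p is 0.214.

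ADO was the 1 gene of the 9 whose siCDO1A and siCDO1C libraries did not overlap, where 12.7% of all genes tested did not. This gene (ENSG00000181915, chromosome 10, plus strand, 62804857 to 62808483) has a deposited length of 3627 bases. Its level was 49.1, 46.9 and 51.4 CPM in siCtrl libraries, 44.6, 40.9 and 44.3 with siCDO1A and 53.7, 55.3 and 52.7 with siCDO1C. All siCDO1A libraries were below and all siCDO1C libraries above the siCtrl libraries. Such opposite, non-overlapping levels were seen in 0.289% of the genes tested, 45 in all. This pattern was not among the planned results and was described from the levels of ADO, so the share is no test of ADO. The differences were small and did not pass the test: against siCtrl they were -0.18 on the log2 scale for siCDO1A (SE 0.0762, adjusted p = 0.113) and 0.13 for siCDO1C (SE 0.0798, adjusted p = 0.439). Between the siRNAs the difference was 0.31 (SE 0.0896, edgeR adjusted p = 0.214, unadjusted p = 0.00267), and DESeq2 fitted to all 9 libraries gave 0.32 with an adjusted p of 0.0375. Over 14 alternatives this adjusted p ranged from 0.0375 to 0.825, and the difference passed in 1 of them.

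The ratio of ADO to CDO1, in CPM per kilobase of deposited gene length, rose with the fall of CDO1, its denominator, and so restates the knockdown. It was 2.12 ± 0.133 (SD, n = 3) in siCtrl cells, 10.8 ± 2.27 with siCDO1A and 23.0 ± 9.68 with siCDO1C. ADO was thus the more abundant dioxygenase RNA in every library. By libraries that did not overlap siCtrl, ADO and ETHE1 were the 2 of the 8 genes lower with siCDO1A, where 30.6% of all genes did not overlap. ADO and SUOX were the 2 higher with siCDO1C, where 24.2% did not overlap. ADO alone did not overlap between the siRNAs, where 12.7% of all genes did not.

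The taurine genes, CSAD and SLC6A6, gave no call with either siRNA. CSAD (ENSG00000139631, chromosome 12, minus strand, 53157663 to 53180909) was at 9.51, 8.68 and 9.32 CPM in siCtrl libraries. It was at 9.93, 11.1 and 9.12 CPM with siCDO1A and at 9.18, 10.4 and 10.9 CPM with siCDO1C, and the 3 ranges overlapped. CSAD differed from siCtrl by 0.13 on the log2 scale for siCDO1A (95% interval -0.14 to 0.40, adjusted p = 0.563) and by 0.14 for siCDO1C (-0.15 to 0.42, adjusted p = 0.644), so that a rise of up to 0.40 or 0.42 remained within the interval. CDO1 and CSAD make the consecutive steps to hypotaurine. The ratio of CDO1 to CSAD per length went from 3.06 ± 0.169 (SD, n = 3) to 0.505 ± 0.147 with siCDO1A and 0.331 ± 0.183 with siCDO1C, which restates the fall of CDO1. CSAD RNA was the more abundant in all 6 knockdown libraries.

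SLC6A6, the taurine transporter (ENSG00000131389, chromosome 3, plus strand, 14402576 to 14489349), differed widely among the siCDO1C libraries. Its level was 40.8, 38.3 and 42.4 CPM with siCtrl and 38.3, 40.7 and 45.7 CPM with siCDO1A, with a log2 fold change of 0.04 (95% interval -0.14 to 0.21, adjusted p = 0.807). With siCDO1C it was 59.8, 34.8 and 57.0 CPM, so that replicates 1 and 3 lay above every other library and replicate 2 below them all. The log2 fold change was 0.31 (-0.09 to 0.71, adjusted p = 0.398). Without siCDO1C replicate 2 it was 0.52 (edgeR adjusted p = 1.31e-05) against siCtrl and 0.49 (adjusted p = 0.00328) against siCDO1A. The fit without a filter on low counts also passed it against siCtrl (adjusted p = 0.0467). The adjusted p over 14 alternatives ranged from 1.31e-05 to 0.661 against siCtrl and from 0.00328 to 1 against siCDO1A. The siCDO1C library with the lowest SLC6A6 was also the one with the most CDO1 RNA left, and whether these are connected was not tested.

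The sulfurtransferases MPST and TST lie next to each other on chromosome 22, MPST (ENSG00000128309) from 37019635 to 37029822 on the plus strand and TST (ENSG00000128311) from 37010859 to 37020183 on the minus strand. MPST passes sulfur from 3-mercaptopyruvate, a product of cysteine, and TST passes it from thiosulfate. Their annotated spans share 549 bases, and the sources used here do not state whether the counting used strand, so reads in that stretch may not be told apart. MPST was at 51.4, 55.1 and 66.1 CPM with siCtrl, 71.0, 68.4 and 61.6 with siCDO1A and 59.1, 65.6 and 55.8 with siCDO1C. TST was at 27.7, 27.8 and 33.4 CPM with siCtrl, 38.7, 36.5 and 30.3 with siCDO1A and 33.4, 34.0 and 30.3 with siCDO1C. In both genes replicate 3 was the highest of the siCtrl libraries and the lowest of the siCDO1A and siCDO1C libraries.

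For siCDO1A the log2 fold change of MPST was 0.21 (SE 0.0858, adjusted p = 0.1) and that of TST 0.24 (SE 0.1, adjusted p = 0.121). Either gene passed when siCtrl replicate 3 was left out (adjusted p = 0.012 for MPST and 0.041 for TST) or siCDO1A replicate 3 (0.0102 and 0.00563), and neither passed in the other 12 alternatives, where the adjusted p reached 0.4 and 0.391. With siCDO1C the values were 0.05 (95% interval -0.16 to 0.27, adjusted p = 0.831) and 0.12 (-0.09 to 0.34, adjusted p = 0.563). The pair kept its proportion: MPST per length was between 0.507 and 0.582 of TST in all 9 libraries, with a mean of 0.555 ± 0.0214 (SD, n = 3) in siCtrl cells.

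The sulfide and sulfite oxidation genes were measured at unequal depth. SQOR, the quinone-linked oxidase of sulfide (ENSG00000137767, chromosome 15, plus strand, 45631148 to 45691294), was at 4.36, 5.65 and 4.60 CPM with siCtrl, 5.74, 6.16 and 5.29 with siCDO1A and 4.52, 7 and 5.61 with siCDO1C. It was higher than the siCtrl library of the same number in 3 of 3 libraries with each siRNA, as was SUOX, and both siRNAs were set against the same siCtrl libraries. How many of all genes did so was not counted, so this is no sign of a rise in either gene. Pairing by number has little support: deviations from the group means correlated between -0.37 and 0.0513 for same-numbered siCtrl and siRNA libraries. The SQOR ranges overlapped and the intervals were wide, from -0.12 to 0.59 with siCDO1A (log2 fold change 0.24, adjusted p = 0.393) and from -0.20 to 0.64 with siCDO1C (0.22, adjusted p = 0.605). ETHE1, the persulfide dioxygenase (ENSG00000105755, chromosome 19, minus strand, 43506719 to 43527244), was at 8.96, 9.55 and 9.13 CPM with siCtrl and at 8.37, 7.46 and 7.67 CPM with siCDO1A, below every siCtrl library. Its log2 fold change there was -0.24 (95% interval -0.51 to 0.04, adjusted p = 0.255). With siCDO1C it was at 7.95, 10.6 and 7.18 CPM (log2 fold change -0.11, interval -0.44 to 0.22, adjusted p = 0.769), with replicate 2 alone above the siCtrl libraries.

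SUOX, sulfite oxidase (ENSG00000139531, chromosome 12, plus strand, 55997180 to 56006641), kept within a narrow range. Its level was 30.8, 29.9 and 29.9 CPM with siCtrl, 31.6, 33.9 and 30.2 with siCDO1A and 32.4, 32.9 and 31.9 with siCDO1C, with all siCDO1C libraries above the siCtrl libraries. SUOX differed from siCtrl on the log2 scale by 0.08 for siCDO1A (95% interval -0.10 to 0.25, adjusted p = 0.588) and by 0.09 for siCDO1C (-0.09 to 0.28, adjusted p = 0.618). Between the siRNAs, the 7 genes other than CDO1 and ADO had log2 differences from -0.16 (MPST, adjusted p = 0.781) to 0.28 (SLC6A6, adjusted p = 0.846).

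CPM per kilobase of deposited gene length was used to compare levels of different genes, and the order of the 9 genes in siCtrl cells depends on that length. MPST had 57.5 CPM and TST 29.6, with deposited lengths of 6760 and 1937 bases. Whether these lengths match the transcripts expressed was not tested. TST (15.3) and ADO (13.5) were highest, followed by MPST (8.51), CDO1 (6.39), SUOX (6.03), ETHE1 (5.75), SLC6A6 (4.91), CSAD (2.09) and SQOR (1.58). No pair of neighbours in this order overlapped in its 3 siCtrl libraries, although CDO1 (6.24 to 6.48), SUOX (5.98 to 6.15) and ETHE1 (5.59 to 5.96) lay close together. CDO1 rested there on 177 to 220 counts, so the order among these genes is uncertain. CDO1 stood above 59.1% of all genes tested, TST above 80.2% and SQOR above 28.6%. With either siRNA CDO1 moved from place 4 to place 9, at 1.14 ± 0.308 (SD, n = 3) with siCDO1A and 0.771 ± 0.446 with siCDO1C. TST, ADO and MPST kept places 1 to 3. By its mean SLC6A6 passed ETHE1 to place 5, but their libraries overlapped, and SLC6A6 was the lower in siCDO1A replicate 1 (4.64 against 5.22) and siCDO1C replicate 2 (4.21 against 6.59).

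**Figure D3:**
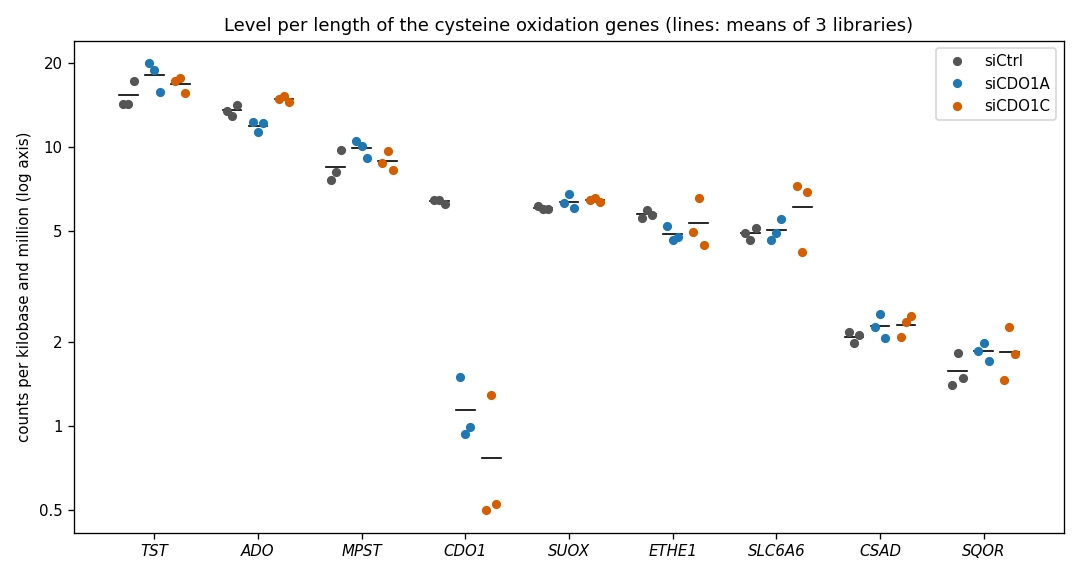
The vertical log axis gives CPM per kilobase of deposited gene length, with 1 point per library, colours for the 3 conditions and short lines for means of 3 libraries, and genes are ordered by their siCtrl mean. CDO1 goes from place 4 (6.39) to the lowest place (1.14 and 0.771), and the order of the other genes changes only where the mean of SLC6A6 passes that of ETHE1, with overlapping libraries.

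Beyond these genes, 28 neighbours of the pathway were listed, enzymes and carriers of cysteine sulfinate, taurine, sulfide, sulfur relay, molybdenum cofactor (which SUOX needs), sulfate and cysteamine, and 25 of them were tested. With each siRNA 0 rose and 1 fell, PAPSS2, which is 4% of those tested beside 14.8% of all genes with siCDO1A and 4.77% with siCDO1C. The median log2 fold change of the 25 was -0.04 with siCDO1A and -0.09 with siCDO1C. PAPSS2 makes PAPS, the donor of sulfate groups, from the sulfate at the end of the pathway. Its level was 48.5, 47.4 and 49.7 CPM with siCtrl, 30.8, 34.8 and 37.1 with siCDO1A and 35, 34.3 and 39.8 with siCDO1C, with no overlap. PAPSS2 changed by -0.50 on the log2 scale for siCDO1A (SE 0.0821, edgeR adjusted p = 2.84e-04) and by -0.42 for siCDO1C (SE 0.0881, edgeR adjusted p = 0.0116). The fall with siCDO1A passed in all 14 alternatives, and that with siCDO1C in 10 of 14, the exceptions being fits without siCtrl replicate 1, 2 or 3 or siCDO1C replicate 1 (highest adjusted p = 0.0755).

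The other sulfate, taurine and cofactor genes gave no call. PAPSS1, the other PAPS synthase, had log2 fold changes of 0.01 (adjusted p = 0.919) and -0.09 (adjusted p = 0.535). CBS, which makes cystathionine and sulfide, stood at a log2 difference of -0.45 for siCDO1A (adjusted p = 0.0743), and this passed once the replicate block was in the fit (-0.43, adjusted p = 0.00793). For siCDO1C the CBS difference was -0.39 (adjusted p = 0.535, or 0.19 under the replicate block). PAPSS1 and CBS were chosen for mention after their values were seen.

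A list of 7 genes of the N-degron pathway, through which proteins whose first residue is an oxidized cysteine are degraded, was read beside ADO, and 5 were tested. With siCDO1A 1 rose (RGS4) and 1 fell (RGS5), where 14.8% of all genes were called, and with siCDO1C 1 rose (RGS4), where 4.77% were. With 5 genes these counts say little about the list. RGS4, a regulator of G protein signalling whose protein is a known target of ADO, was at 2.73, 2.95 and 3.11 CPM with siCtrl, 5.33, 4.11 and 6.68 with siCDO1A and 6.58, 7.91 and 6.68 with siCDO1C. All knockdown libraries lay above the siCtrl libraries, at counts from 35 to 104. RGS4 changed by 0.87 on the log2 scale for siCDO1A (SE 0.207, edgeR adjusted p = 0.00674) and by 1.26 for siCDO1C (SE 0.179, edgeR adjusted p = 8.88e-04), and both passed in all 14 alternatives. The difference between the siRNAs was 0.39 (adjusted p = 0.675).

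RGS5, another RGS protein of the same pathway, was at 16.8, 13.2 and 12.1 CPM with siCtrl and at 10.7, 8.28 and 10.7 CPM with siCDO1A. All siCDO1A libraries lay below the siCtrl libraries. The log2 difference was -0.50 (SE 0.142, edgeR adjusted p = 0.0194), and the call held in 10 of 14 alternatives, being lost without siCtrl replicate 1 (adjusted p = 0.147) or siCDO1A replicate 2 (0.127) and in the edgeR and DESeq2 fits of all 9 libraries (0.0671 and 0.053). With siCDO1C it was at 9.52, 14.8 and 10.2 CPM (log2 fold change -0.29, adjusted p = 0.401), again with replicate 2 above the others. Another row of the table carries the same symbol on the opposite strand, with 185 counts in all, and was not added. RGS4 and RGS5 values are RNA levels, and the proteins were not measured.

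**Figure D4:**
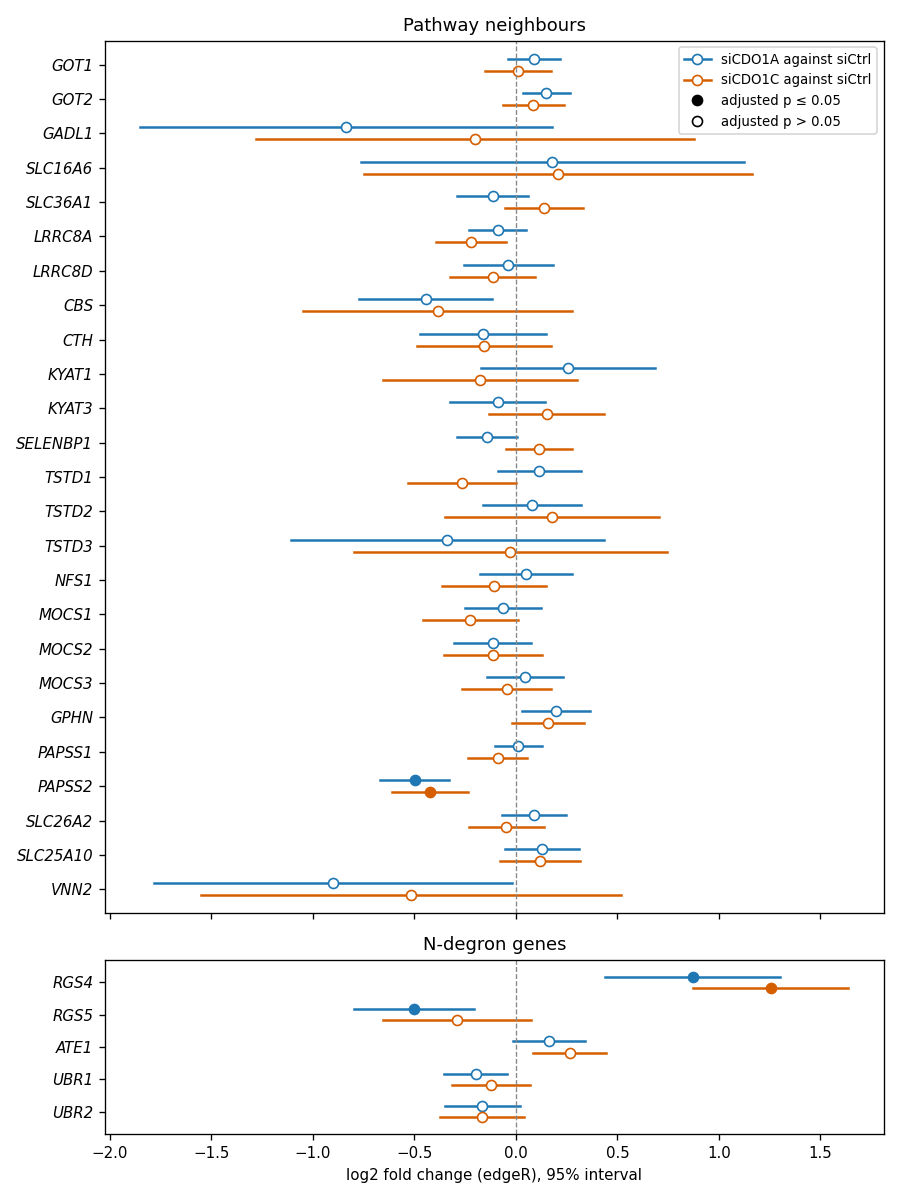
Points are edgeR log2 fold changes and bars 95% intervals against siCtrl for the 25 pathway neighbours tested (upper panel) and the 5 N-degron genes tested (lower panel), with filled points past an adjusted p of 0.05. PAPSS2 is filled to the left of 0 for both siRNAs, RGS4 to the right for both and RGS5 to the left for siCDO1A alone, where the difference between the siRNAs did not pass (adjusted p = 0.909).

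The genes whose pattern over the 9 libraries was most like that of CDO1 were ranked by the root mean square difference of log2 CPM from each gene's own mean, over 14479 genes with a mean of at least 1 CPM. CDH2, which encodes N-cadherin, came first (0.836), followed by COL5A2, a fibrillar collagen chain (0.888), and SLC7A11, the cystine transporter subunit (0.901), against a median of 1.38 over all genes compared. CDH2 was at 7.66, 2.40 and 3.39 CPM on average in siCtrl, siCDO1A and siCDO1C cells. COL5A2 was at 50.7, 22.7 and 21.5 CPM and SLC7A11 at 41.7, 25.2 and 14.5 CPM. Because CDO1 had the largest fall of all genes tested, this measure favours genes that fell strongly with both siRNAs. For the same reason none of the 3 fell as far as CDO1. The mean of CDH2 was lower with siCDO1A than with siCDO1C, and that of CDO1 was higher, but CDH2 counts were as low as 32. No test between the siRNAs is given for CDH2, and the siRNAs were not told apart in CDO1.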

How the data were processed

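RNA of VCaP cells was measured in 9 RNA-seq libraries, 3 each for siCtrl, siCDO1A and siCDO1C. Poly(A) RNA was made into directional paired-end libraries, and the authors trimmed adapters, discarded reads of low quality and ran featureCounts per gene. The submitters' processing notes name CASAVA, HISAT2 2.0.5 and hg38, while its settings for strand and multiple mapping are not given in the sources used here. Values were deposited by the authors as whole-number counts without normalization, with gene coordinates and lengths. A further 3 columns of the table match no sample here and were used in no step.

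Genes were kept by filterByExpr (minimum count 10 over the 9 libraries), normalized with TMM and tested with the quasi-likelihood test of edgeR 4.0.16 (robust, legacy=TRUE) in R 4.3.3 on the 6 libraries of each of 3 comparisons. An adjusted p (Benjamini-Hochberg over the 15555 genes) of at most 0.05 was a call, and the code was tested on simulated data. Standard errors were derived from the F statistic of edgeR, as the size of the log2 fold change over the square root of F. The 95% intervals were built from these standard errors with the t distribution. Levels are CPM after TMM within a gene, and CPM per kilobase of deposited gene length between genes. Two-sided exact permutation tests of 3 against 3 cannot give a p below 0.1. Pairs of same-condition libraries differed beyond sampling noise (chi-square per degree of freedom 2.79 to 17.2), so none was a duplicate. The labels' batch number equals the replicate number, which is the only source of pairing. Deviations from the group means correlated between -0.37 and 0.372 over 11337 genes for same-numbered libraries, with 2 of 9 correlations over 0.1, and the number entered as a block only as an alternative. DESeq2 1.42.0, RLE factors, other filters and thresholds, legacy=FALSE and leaving out each library were the other alternatives, and those for the N-degron list, PAPSS2, RGS4 and RGS5 were added after seeing the data. The member genes and the lists, written by hand from general knowledge, were chosen with earlier results of these data known. Named are the 9 members, listed genes that passed with either siRNA, and the 3 genes most like CDO1 by the root mean square difference of log2 CPM (prior count 2). PAPSS1 and CBS are named beyond that rule. Of the members, 6 had a RefSeq promoter window. A gene of the marker list is not reported here and was left out of its sum.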

Additional observations from a re-analysis of the deposited data

Results flagged for a closer look

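ADO differed between the siRNAs by a log2 fold change of 0.31 (siCDO1C above siCDO1A), because every siCDO1A library lay below and every siCDO1C library above the siCtrl libraries. The direct test of the difference did not pass over all genes (edgeR adjusted p = 0.214). Of 14 alternatives it passed in 1, DESeq2 fitted to all 9 libraries (adjusted p = 0.0375), and the highest adjusted p was 0.825. Of the genes tested, 0.289% showed such opposite levels without overlap, a share for a pattern described from ADO itself and therefore no test of it. Between the siRNAs alone, 12.7% of the genes tested did not overlap.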

How the results depend on the processing

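CDO1 kept its fall and its call with both siRNAs under every alternative run, and leaving out libraries moved its reduction between 80.5% and 84.9% (siCDO1A) and between 85.8% and 91.9% (siCDO1C). Genes called with siCDO1A (2309) numbered 1107 at an adjusted p of 0.01, 1380 with DESeq2 and 1369 with edgeR on all 9 libraries, 1358 with the replicate block, and 1292 to 3454 when libraries were left out. With siCDO1C (742) there were 282 at 0.01 and 263 (without siCtrl replicate 3) to 2068 (without siCDO1C replicate 2). Between the siRNAs (69) there were 24 at 0.01, 147 without the filter, 104 and 187 with DESeq2 on the compared groups and on all 9 libraries, 128 with edgeR on all 9 libraries, 121 with the replicate block, and 18 to 447. Of the 9 members, 1 to 3 were called with siCDO1A and 1 to 2 with siCDO1C when libraries were left out (2 with siCDO1C without the filter, where SLC6A6 had an adjusted p of 0.0467), and 0 to 1 between the siRNAs (1 with DESeq2 on all 9 libraries). Called neighbours with siCDO1A (1) were 2 without the filter, 2 with the replicate block (CBS added) and 1 to 4 without single libraries, and with siCDO1C (1) they were 0 at 0.01 and 0 to 3 without single libraries. Called N-degron genes with siCDO1A (2) were 1 at 0.01, 1 with either fit of all 9 libraries and 1 to 4 without single libraries, and 1 to 3 with siCDO1C (1). Signs turned only when a library was left out: SLC6A6 with siCDO1A ran from -0.036 to 0.092, MPST with siCDO1C from -0.013 to 0.17, and between the siRNAs CSAD from -0.043 to 0.089, SQOR from -0.19 to 0.14, ETHE1 from -0.046 to 0.24 and SUOX from -0.0065 to 0.065. The replicate block, with the number taken from the batch label, changed no call of the 9 members, PAPSS2, RGS4 or RGS5. Causes of these shifts were not tested. CDO1 rested on 14 to 40 counts after knockdown and SQOR on 56 to 92, which limits their precision.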
